A study of Mus musculus with 2 samples.

Results

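Crabp1, Prdm1, Twist1, Twist2, Tbx3, Lef1, Trps1 and Corin are 8 genes used in skin biology as markers or regulators of the dermal papilla and of papillary fibroblasts, and their mRNA was followed here in healing mouse skin. All 8 were found by symbol among the 27998 genes of both count matrices, as ENSMUSG00000032291, ENSMUSG00000038151, ENSMUSG00000035799, ENSMUSG00000007805, ENSMUSG00000018604, ENSMUSG00000027985, ENSMUSG00000038679 and ENSMUSG00000005220. The study made a circular wound of 1.8 cm in the back skin of male wild-type (WT) C57BL/6J mice of 6 to 8 weeks and took the wound centre 2 days after the scab came off. In the library WT_LW the wounds had received PBS on days 0, 3 and 6, and in TLR9agonist_LW they had received ODN2395, a CpG oligodeoxynucleotide that activates Toll-like receptor 9, at 4 μg on the same days. A figure legend of the study names a control oligonucleotide in place of PBS, so the vehicle of WT_LW is not settled. Each library was made once, from cells pooled over several mice with epidermis and dermis dissociated apart and then recombined. With 1 library per group there is no replicate check and no test between groups, and every interval below covers counting error at 95% only.

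The dermal papilla is the cluster of mesenchymal cells at the base of the hair follicle that signals to the epithelium above it. Papillary fibroblasts lie in the upper dermis under the epidermis and share a lineage with the dermal papilla, while reticular fibroblasts of the lower dermis make much of the collagen matrix. Large wounds in adult mice can form new hair follicles, and some wound fibroblasts then acquire papilla features.

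Fibroblasts were taken as cells with 20 or more unique molecular identifiers (UMIs) of Col1a1 and Col1a2 together, 2 or more of Pdgfra and Lum together, and no UMI of the leukocyte gene Ptprc. The gate held 855 of 11443 cells in WT_LW and 2670 of 13206 cells in TLR9agonist_LW, which is 7.47% (6.997 to 7.97) and 20.2% (19.5 to 20.9). Their median depth was 15049 and 13132 UMIs, and 47 of the 12800 and 13751 barcodes occurred in both libraries. At the collagen limit, 59 and 199 fibroblasts had 20 to 39 collagen UMIs, and 56 and 341 cells that met the other conditions had 10 to 19. At the other limit, 101 and 193 fibroblasts had 2 UMIs of Pdgfra and Lum, and 305 and 342 cells that met the other conditions had 1. Dcn, the matrix proteoglycan decorin, which the gate did not use, was detected in 96.4% and 98.7% of the gated cells. Its level there was 6299.9 and 5769 counts per 1000000 UMIs of the same cells (CPM), against 117 and 169.8 CPM in endothelial cells. The gate was not pure, since 163 (19.1%) and 432 (16.2%) of them also met the gate of another type, among them 36 and 222 that met the keratinocyte gate. The 4 keratins Krt5, Krt14, Krt1 and Krt10 summed to 1605 CPM in fibroblasts in WT_LW and 3641 in TLR9agonist_LW, so the main values are given also without these cells.

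To show the DNA just before the members that the results turn on, 250 bases ahead of the start site are printed for Crabp1 and Twist2, the pair with the highest odds ratio of being found in the same fibroblast among the 6 members with 200 or more UMIs, and for Prdm1, the one of those 6 with the largest fold between libraries. They come from RefSeq on GRCm38.p6, are written 5′ to 3′ on the gene's own strand, and capitals mark the E-box CANNTG, the letters to which dimers of the Twist family bind, sought on both strands. The submitters' notes name another build, mm9, for the count files, so the coordinates belong to the RefSeq windows alone.
Crabp1, chr9:54764498-54764747, plus strand: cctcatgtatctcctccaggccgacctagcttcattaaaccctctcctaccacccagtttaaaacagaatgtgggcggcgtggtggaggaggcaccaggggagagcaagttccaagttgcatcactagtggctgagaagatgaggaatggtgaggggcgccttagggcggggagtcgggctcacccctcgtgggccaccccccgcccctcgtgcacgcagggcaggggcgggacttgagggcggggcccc
Twist2, chr1:91801211-91801460, plus strand: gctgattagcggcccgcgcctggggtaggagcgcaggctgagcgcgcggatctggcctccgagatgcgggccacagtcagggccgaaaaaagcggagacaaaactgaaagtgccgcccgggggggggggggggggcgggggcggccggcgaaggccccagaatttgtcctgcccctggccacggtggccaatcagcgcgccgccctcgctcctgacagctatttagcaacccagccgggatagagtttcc
Prdm1, chr10:44458749-44458998, minus strand: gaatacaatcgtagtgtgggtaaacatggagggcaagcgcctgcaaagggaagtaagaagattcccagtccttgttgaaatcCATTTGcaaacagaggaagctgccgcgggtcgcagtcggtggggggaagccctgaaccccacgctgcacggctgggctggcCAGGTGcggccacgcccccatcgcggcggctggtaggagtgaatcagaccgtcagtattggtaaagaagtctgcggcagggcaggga

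The Prdm1 window held 2 E-boxes, and the Crabp1 and Twist2 windows had none of these letters. Of 32851 windows of the same length over all genes, 66.2% held at least 1. CTTTGA, the core letters bound by LEF and TCF factors, was in none of these 3 windows and in 13.8% of all windows, again on both strands. RefSeq windows were matched for 6 of the 8 members.

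Prdm1, which encodes a zinc finger repressor that marks papillary progenitors in developing dermis, differed most in fibroblasts among the 6 members with 200 or more UMIs. Its level was 22.7 CPM (20.3 to 25.4) in WT_LW and 67.3 (64.8 to 69.9) in TLR9agonist_LW, which is 2.96-fold or 1.57 (1.40 to 1.74) on the log2 scale. Tbx3, a T-box repressor present in hair follicle mesenchyme, followed with 30.1 (27.3 to 33.1) and 50.5 (48.3 to 52.8) CPM, or 0.75 on the log2 scale (0.59 to 0.90). Both were higher in TLR9agonist_LW by more than counting error.

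Crabp1, the cellular retinoic acid binding protein, was the most abundant member at 340 CPM in WT_LW and 496 in TLR9agonist_LW, with a log2 ratio of 0.54 (0.50 to 0.59). Twist2 and Twist1 encode related basic helix-loop-helix factors of the dermal mesenchyme. Twist2 stood at 90.7 and 122 CPM (log2 ratio 0.43, 0.34 to 0.52). Twist1 stood at 250.1 and 309.5 (log2 ratio 0.31, 0.25 to 0.36). Trps1, a GATA-type zinc finger repressor needed for normal hair follicles, was lower in TLR9agonist_LW, at 73.1 against 93.1 in WT_LW, with a ratio on the log2 scale of -0.35 (-0.44 to -0.25).

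All levels are relative to the UMIs of the same cells, so the ratio of the median gene matters. That gene, among those with 200 or more fibroblast UMIs, had a log2 ratio of -0.32, so relative to it Prdm1 stood at 1.89, Tbx3 at 1.07, Crabp1 at 0.86, Twist2 at 0.75, Twist1 at 0.63 and Trps1 at -0.03. A fold of 1.5 or more was used as a rule of size. Of the 6 members with 200 or more UMIs, Prdm1 and Tbx3 were higher by it and 0 were lower, where 7.41% of 10549 genes were higher and 24.3% were lower. Relative to the median gene 5 of the 6 were higher by 1.5-fold, where 13.0% of genes were.

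Leaving out the fibroblasts that also met another gate moved Prdm1 the most. Its level became 21.7 in WT_LW and 48.0 in TLR9agonist_LW over 692 and 2238 cells, which is 1.15 on the log2 scale (0.95 to 1.35). The ratios of Crabp1 (0.64), Tbx3 (0.84), Twist2 (0.54) and Twist1 (0.46) were slightly larger there, and 3 members were then higher by 1.5-fold, where 6.79% of genes were. Prdm1 was also high in keratinocytes of TLR9agonist_LW, as described further on. The 4 keratins in all gated fibroblasts stood at 5.59% of their keratinocyte level in WT_LW and 16.8% in TLR9agonist_LW, and the same shares of the keratinocyte Prdm1 level come to 1.17 and 28.04 CPM. Without the cells that met another gate those shares were 0.87% and 2.87%, worth 0.18 and 4.79 CPM of Prdm1. In fibroblasts with at most 4 UMIs of the 4 keratins, 537 and 352 cells, Prdm1 stood at 25.2 and 59.6 CPM. The part of keratinocyte mRNA in the Prdm1 level of fibroblasts was not tested.

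**Figure D1:**
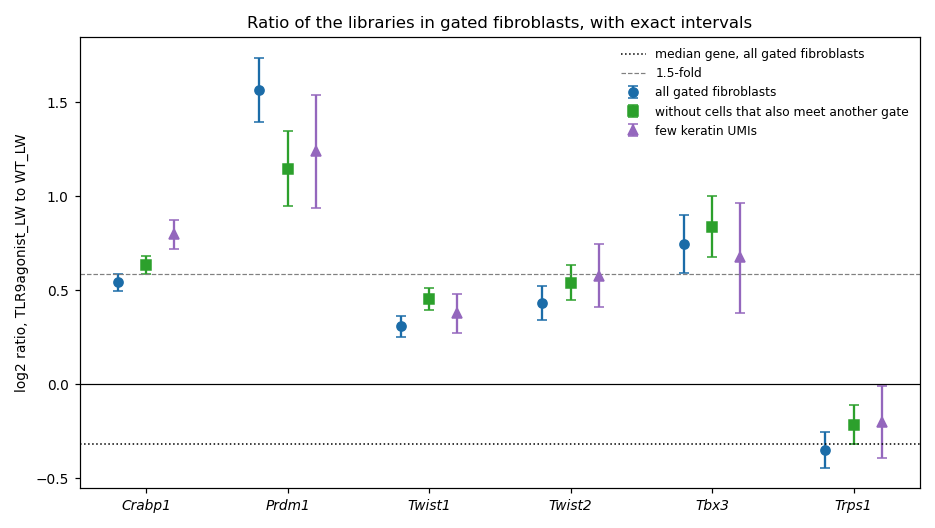
Log2 ratio of TLR9agonist_LW to WT_LW (vertical axis) for the 6 members with enough counts, in all gated fibroblasts (circles), without cells that also met another gate (squares) and in fibroblasts with at most 4 UMIs of the 4 keratins (triangles), with a dashed line at 1.5-fold and each point with its exact counting interval. Prdm1 is the highest in all 3 sets, from 1.15 to 1.57, and Trps1 is the only member under 0, with the median gene of all gated fibroblasts dotted at -0.32.

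Genes of cell dissociation stress moved with the libraries as well. Of 14 such genes 8 were higher by 1.5-fold in fibroblasts of TLR9agonist_LW and 0 were lower, with a median log2 ratio of 0.70. The heat shock gene Hspa1b was at 869.6 and 3044 CPM and Fos, an immediate early gene, at 1322 and 1005. Their part in the member levels was not tested.

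Lef1 and Corin, both in use as marks of the papilla itself, were almost absent from the fibroblast gate. Lef1, the transcription factor that carries Wnt signals to DNA, had 28 UMIs in 16 of 855 fibroblasts of WT_LW and 17 UMIs in 17 of 2670 of TLR9agonist_LW. These are 1.99 (1.32 to 2.87) and 0.43 (0.25 to 0.69) CPM, and 1 fibroblast of WT_LW held 11 of its 28 UMIs. Corin, a transmembrane serine protease of the papilla, had 3 UMIs in WT_LW and none (0) in TLR9agonist_LW, and a limit of 3 counts puts its level there at up to 0.076 CPM (exact interval up to 0.093). Over all cells Corin gave 32 and 6 UMIs.

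Across the 8 gated cell types that had 50 or more cells in each library the members fell into different patterns. Crabp1 and Twist2 were highest in fibroblasts in both libraries, and the next type lay outside their intervals. After fibroblasts Crabp1 was highest in Schwann cells of WT_LW at 40.3 CPM, overlapping T cells at 34.8, and in T cells of TLR9agonist_LW at 90.6, above Schwann cells at 48.2. Twist2 was next highest in pericytes at 15.1 in WT_LW and 44.2 in TLR9agonist_LW. The share of a member's UMIs that lay in fibroblasts was 58.2% and 76.0% for Crabp1 and 54.2% and 72.5% for Twist2. Fibroblasts also made up more of the cells in TLR9agonist_LW, as given above.

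Twist1 and Tbx3 were as high or higher in the pericyte gate. Its markers, Rgs5, Notch3, Myh11 and Kcnj8, do not separate pericytes from vascular smooth muscle. Twist1 reached 367 CPM in pericytes against 250.1 in fibroblasts of WT_LW, and 329.5 against 309.5 in TLR9agonist_LW, where the intervals overlapped. Pericytes held Tbx3 at 43.4 CPM in WT_LW and at 112 in TLR9agonist_LW, or 1.36 (1.10 to 1.63) on the log2 scale, with 181 and 348 UMIs. The pericytes of TLR9agonist_LW thus held Tbx3 at 221% of the fibroblast level. In pericytes Twist2 was also higher in TLR9agonist_LW, by 1.55 (1.11 to 2.00) on the log2 scale from 63 and 138 UMIs. In the same gate Dcn was at 308 and 492 CPM and Crabp1 at 11.5 and 26.9, while Col1a1 was lower, at 2146 and 1724. The part of fibroblast mRNA in the pericyte values was not tested.

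Trps1 was highest in the macrophage or dendritic gate, at 188 CPM in WT_LW and 148 in TLR9agonist_LW, then in pericytes at 117 and 96.2. It lay between 62.8 and 93.1 in fibroblasts, T cells, Schwann cells and endothelial cells of both libraries. Of the 7 types with 200 or more Trps1 UMIs 0 were higher by 1.5-fold in TLR9agonist_LW. Lef1 was highest in T cells, in which it is a known developmental factor, at 30.6 and 21.4 CPM, and then in Schwann cells at 11.8 and 15.01. The T cell value differed by -0.52 (-0.68 to -0.36) on the log2 scale, and only 2.65% and 2.25% of all Lef1 UMIs came from fibroblasts.

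**Figure D2:**
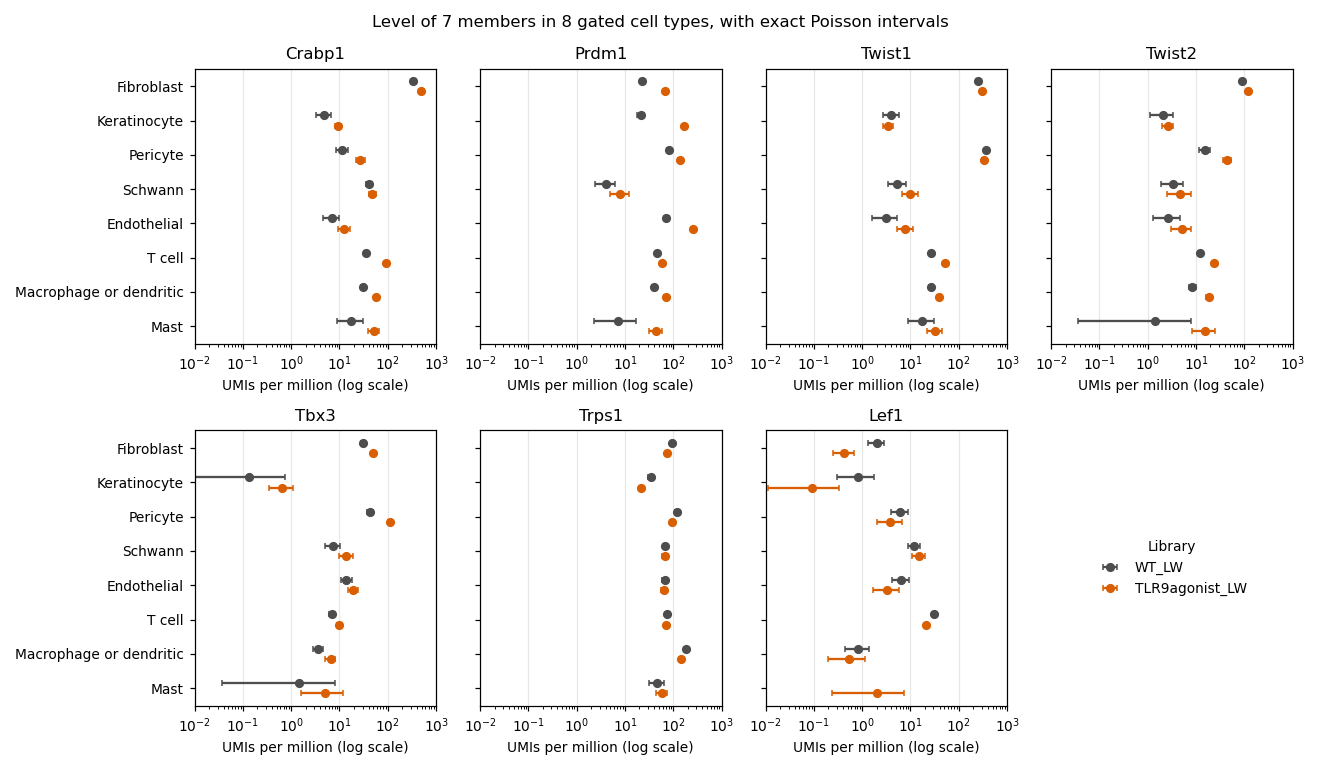
Level of 7 members in CPM (log scale) in 8 gated cell types, with WT_LW in grey, TLR9agonist_LW in orange and exact Poisson intervals as bars. Crabp1 and Twist2 peak in fibroblasts, Twist1 and Tbx3 in pericytes, Trps1 in the macrophage or dendritic gate and Lef1 in T cells; Lef1 had no UMI in mast cells of WT_LW and no point is drawn there.

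Collagen mRNA was also present in the leukocyte gates. In T cells Col1a1 stood at 8.8% of its fibroblast level in WT_LW and 17.4% in TLR9agonist_LW, and Crabp1 stood at 10.2% and 18.3%, Twist1 at 10.7% and 16.6%, Twist2 at 13.4% and 19.6% and Tbx3 at 23.6% and 19.6%. T cells with 20 or more collagen UMIs made up 5.92% of T cells in WT_LW and 11.3% in TLR9agonist_LW. In the other T cells Crabp1 was at 7.25 and 22.6 CPM, while Prdm1 (47.8 and 55.6), Trps1 (72.9 and 72.5) and Lef1 (33.8 and 26.0) were close to their level in all T cells. The last 3 members were thus found in T cells that carried little fibroblast mRNA. In Schwann cells Crabp1 stood at 11.9% and 9.7% of its fibroblast level, where Lum stood at 1.6% and 2.8% and Col1a1 at 15.6% and 8.5%.

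Prdm1 was higher in TLR9agonist_LW in all 8 gated types, with the interval of the ratio above 0 in each, although Schwann cells (18 and 22 UMIs) and mast cells (5 and 43 UMIs) had few counts. The 6 types with 200 or more Prdm1 UMIs included 5 in which it was higher by 1.5-fold, T cells being the exception at 45.5 and 59.6 CPM. By comparison 7.41% of genes in pericytes, 7.41% in endothelial cells, 7.49% in T cells, 5.26% in keratinocytes, 4.81% in the macrophage or dendritic gate, 4.48% in Schwann cells and 25.6% in mast cells were higher by this rule. Crabp1 was also higher in all 8 types, with the interval above 0 in 7, and by 1.5-fold in 3 of 5 types with enough UMIs. That count was 3 of 4 for Twist2, 2 of 3 for Tbx3, 1 of 4 for Twist1 and 0 of 7 for Trps1. T cells were among the types counted for Crabp1, Twist2 and Twist1, and the macrophage or dendritic gate for Crabp1 and Twist2. Col1a1 was higher in both gates too, at 1780 and 4351 CPM and at 2150 and 3307. The keratin Krt10 was also higher in TLR9agonist_LW in Schwann cells (82.6 and 361 CPM), mast cells (195 and 1206), pericytes (67.4 and 307) and endothelial cells (62.3 and 236). In the macrophage or dendritic gate Krt10 was at 277 and 507, while Krt14 was at 537 and 481. The part of fibroblast mRNA and of keratinocyte mRNA in these counts and in the Prdm1 ratios was not tested. How many of all genes were higher in all 8 types, or had intervals above 0, was not counted.

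The largest of these differences lay in keratinocytes, where PRDM1 is known from terminal differentiation. Prdm1 stood at 21.0 CPM in the 422 keratinocytes of WT_LW and 167 in the 1017 of TLR9agonist_LW, a ratio of 2.99 (2.76 to 3.23) on the log2 scale that ranked 15 among 7605 genes. Keratinocytes with more Krt1 and Krt10 than Krt5 and Krt14, a split chosen after the values were seen, had 26.1 and 239 CPM. Keratinocytes with at least as much Krt5 and Krt14 had 17.5 and 108. Both subsets were thus higher in TLR9agonist_LW, and the share with more Krt1 and Krt10 was similar, at 196 of 422 and 463 of 1017 cells. In endothelial cells Prdm1 stood at 71.3 and 253 CPM, or 1.83 (1.64 to 2.02) on the log2 scale, which ranked 65 among 5388 genes. The median log2 ratio of the stress genes was -0.27 in keratinocytes, with 3 of 14 higher and 4 lower by 1.5-fold, and of 0.68 in endothelial cells, with 8 higher and 1 lower. It was 0.62 in Schwann cells, 0.25 in pericytes, -0.08 in T cells, -0.15 in the macrophage or dendritic gate and -0.65 in mast cells, and its part in the Prdm1 levels was not tested.

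Depth differed between types, so detection was also compared in cells thinned to 1500 UMIs each. Crabp1 was then detected in 24.8% (21.9 to 27.9) of 831 fibroblasts of WT_LW and 35.4% (33.6 to 37.3) of 2621 of TLR9agonist_LW, with 24 and 49 shallower cells left out. Unthinned, the shares were 49.1% and 64.9%. In endothelial cells, which should lack the gene, the thinned shares were 1.49% and 2.39%. Prdm1 was detected in 4.57% and 8.28% of thinned fibroblasts, in 3.67% and 22.9% of thinned keratinocytes and in 10.0% and 34.3% of thinned endothelial cells. Before thinning the median UMIs were 13189 and 21563 in keratinocytes and 6439 and 8452 in endothelial cells. Lef1 was detected in 0.36% of thinned fibroblasts of WT_LW and in 0 of 2621 of TLR9agonist_LW, which at 3 counts allows up to 0.114%, against 5.32% and 3.77% of T cells.

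Which members were used by the same cell was read from fibroblasts thinned to 5000 UMIs, 691 in WT_LW and 2338 in TLR9agonist_LW. Fibroblasts with none of the 6 members that had enough counts made up 19.5% (16.6 to 22.7) in WT_LW and 7.78% (6.73 to 8.95) in TLR9agonist_LW. Those with 3 or more made up 29.1% (25.7 to 32.6) and 44.0% (41.9 to 46.0). All 6 were found together in 2 and 21 cells. Taken singly, all but Trps1 (34.0% and 30.1%) were detected more often in TLR9agonist_LW, such as Crabp1 in 36.6% and 52.4% of these cells. The shares above thus do not by themselves show joint use, and sets of other genes were not counted. A single UMI counts as detection here, and free RNA can give one. In T cells thinned to 1500 UMIs Crabp1 was detected in 2.02% and 5.70% and Twist2 in 0.91% and 2.04%, higher in TLR9agonist_LW as well, and the part of this background in the counts above was not tested. These counts include the cells that met another gate.

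**Figure D3:**
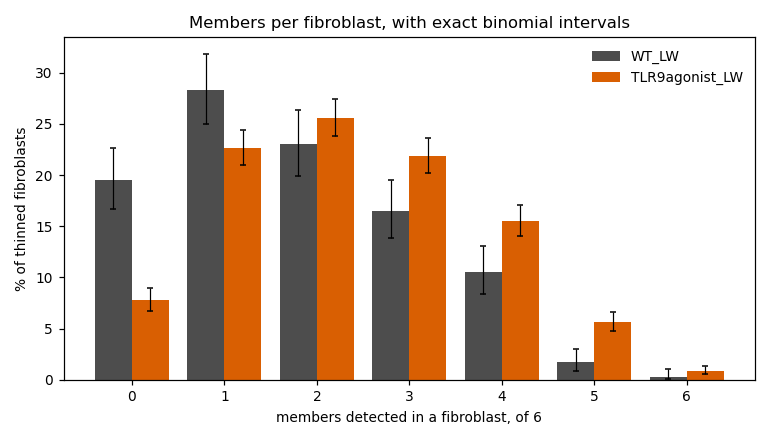
Share of thinned fibroblasts (vertical axis, %) by how many of 6 members had at least 1 UMI (horizontal axis), with WT_LW in grey, TLR9agonist_LW in orange and exact binomial intervals as bars. WT_LW has more cells with 0 members, 19.5% against 7.78%, and TLR9agonist_LW more with 3 or above.

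Among the 6 members with enough counts, Crabp1 and Twist2 had the highest odds of being found in the same fibroblast. Of WT_LW fibroblasts with Crabp1 48.2% had Twist2, against 15.5% of those without, an odds ratio of 5.05 (3.49 to 7.37). In TLR9agonist_LW the shares were 54.9% and 26.0%, with an odds ratio of 3.47 (2.91 to 4.16). Crabp1 with Twist1 came next, at 3.33 (2.35 to 4.76) and 2.77 (2.29 to 3.36). Twist1 with Twist2 had 2.18 and 1.99, and Twist2 with Tbx3 had 2.01 and 2.13. Of 28 pairs 21 had an odds ratio in both libraries, and for 9 the interval lay above 1 in both. These were 9 of the 10 pairs among Crabp1, Twist1, Twist2, Tbx3 and Trps1. Pairs of the 6 members with each of 5486 other genes passed the same rule in 3.24% of cases, from 0.36% for Prdm1 to 6.23% for Crabp1.

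Prdm1 formed no pair that passed in both libraries. With Crabp1 its odds ratio was 1.06 (0.58 to 1.91) in WT_LW and 1.28 (1.05 to 1.58) in TLR9agonist_LW, and with Twist1 it was 0.96 (0.54 to 1.72) and 0.74 (0.59 to 0.92). This depended on the cells that met another gate. Without them Prdm1 with Crabp1 had 2.45 (1.30 to 4.72) and 2.00 (1.54 to 2.60), Prdm1 with Twist2 had 4.05 (2.13 to 7.93) and 1.56 (1.23 to 2.00), and Prdm1 with Twist1 had 1.67 (0.86 to 3.39) and 0.95 (0.71 to 1.26). Crabp1 with Twist2 then stood at 4.19 and 2.56, and 11 pairs passed in both libraries. The share of pairs with other genes that passed was not counted in these cells, so the 11 cannot be set against it.

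**Figure D4:**
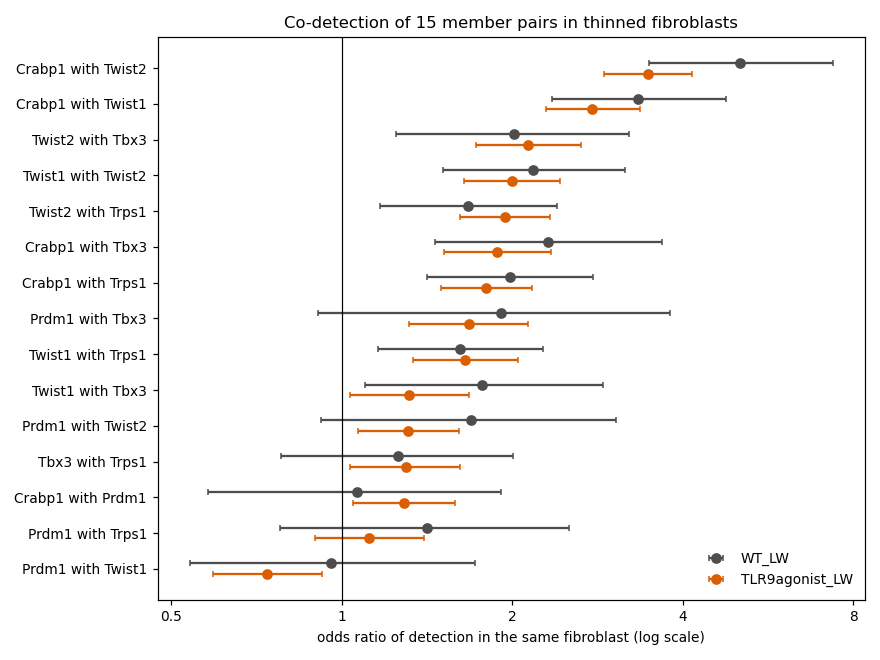
Odds ratio (log scale) of detecting both genes of a pair in the same thinned fibroblast, for the 15 pairs of the 6 members with enough counts, with WT_LW in grey, TLR9agonist_LW in orange and exact conditional intervals as bars. Crabp1 with Twist2 lies at the top at 5.05 and 3.47, and Prdm1 with Twist1 at the bottom at 0.96 and 0.74.

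Fibroblasts were then ordered by a lineage score, the log2 of UMIs of 6 upper lineage genes (Prss35, Grem1, Inhba, Fabp5, Sdc1 and Ereg) over those of 8 lower lineage genes (Clec3b, Gpx3, Plac8, Mest, Mfap5, Pi16, Cilp and Angptl1), each sum plus 1. Both libraries were split at the same values into terciles, which are ranges of a score and not cell types, and 249 and 1047 cells lay within 0.5 of a limit. No member belongs to either list, but Fabp5, Sdc1 and Ereg are also keratinocyte genes. UMIs were summed without scaling, so abundant genes weigh most. In the upper tercile of all gated fibroblasts Fabp5 stood at 2975 and 7444 CPM and Prss35 at 887 and 526. In the middle tercile Prss35 stood higher, at 750 and 680 against 411 and 637 for Fabp5. Both lists were chosen with earlier results of these data known, and Prss35 is the gene most like Crabp1 and Twist2, as given below. A rise of the members along the score is thus a description and not an independent check. The upper tercile of all gated fibroblasts had Krt14 at 1781 and 3532 CPM, against 136 and 260 in the lower. Without cells that met another gate Krt14 was at 120 and 267 in the upper tercile and at 71.4 and 167 in the lower, and those fibroblasts are described first.

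In them all 6 members with enough counts were higher in the upper than in the lower tercile of both libraries with intervals apart, as were 7.19% of genes. Crabp1 rose from 73.8 CPM in the lower to 1115 in the upper tercile of WT_LW and from 205 to 1018 in TLR9agonist_LW. Twist2 went from 41.3 to 236 and from 68.4 to 258. Twist1 went from 175 to 506 and from 291 to 486. Prdm1 went from 10.8 to 46.0 and from 25.0 to 83.3, Tbx3 from 17.3 to 76.6 and from 32.8 to 90.8, and Trps1 from 65.8 to 172 and from 37.3 to 151. The steepest slope was that of Crabp1 in WT_LW, a log2 ratio of 3.92 (3.78 to 4.06).

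For 5 of the 6 members the libraries differed more in the lower than in the upper tercile, with intervals of the ratio apart. This held for Crabp1 and Twist1 under all 6 alternative settings. It held for only 3 members with Pdgfra required, and for Crabp1 and Twist1 alone in fibroblasts with few keratin UMIs. How many of all genes showed such a gap was not counted, so the 5 cannot be set against a share. The log2 ratio of TLR9agonist_LW to WT_LW for Crabp1 was 1.47 (1.34 to 1.62) in the lower tercile and -0.13 (-0.20 to -0.07) in the upper, where it was 0.20 (0.09 to 0.30) in fibroblasts with few keratin UMIs. For Twist1 it was 0.74 (0.64 to 0.83) and -0.06 (-0.15 to 0.04), for Twist2 0.73 (0.53 to 0.93) and 0.13 (-0.01 to 0.27), and for Tbx3 0.92 (0.62 to 1.23) and 0.25 (0.00 to 0.49). Prdm1 was higher in TLR9agonist_LW in each tercile, by 1.20 in the lower, 0.58 in the middle and 0.86 in the upper, with overlapping intervals. Trps1, the fifth, was lower in each tercile, with -0.82 (-1.02 to -0.62) in the lower, -0.49 in the middle and -0.19 (-0.36 to -0.02) in the upper. The lower tercile held 50.7% of these fibroblasts in WT_LW and 28.5% in TLR9agonist_LW, and the upper held 26.6% and 35.4%. The lower tercile is open at its low end, and its make-up differed between libraries. Over all gated fibroblasts it had Clec3b at 489 and 205 CPM and Mfap5 at 1559 and 939. Gpx3 (604 and 757) and Cilp (375 and 409) went the other way. The part of this in the ratios was not tested.

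Over all gated fibroblasts 5 members kept that order in both libraries, where 11.0% of genes did. Twist1 turned in TLR9agonist_LW, from 293 in the lower to 264 CPM in the upper tercile. Crabp1 then stood at 535 in the upper tercile of TLR9agonist_LW and 801 in that of WT_LW. The keratin levels given above moved with this difference, and their part in it was not tested.

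**Figure D5:**
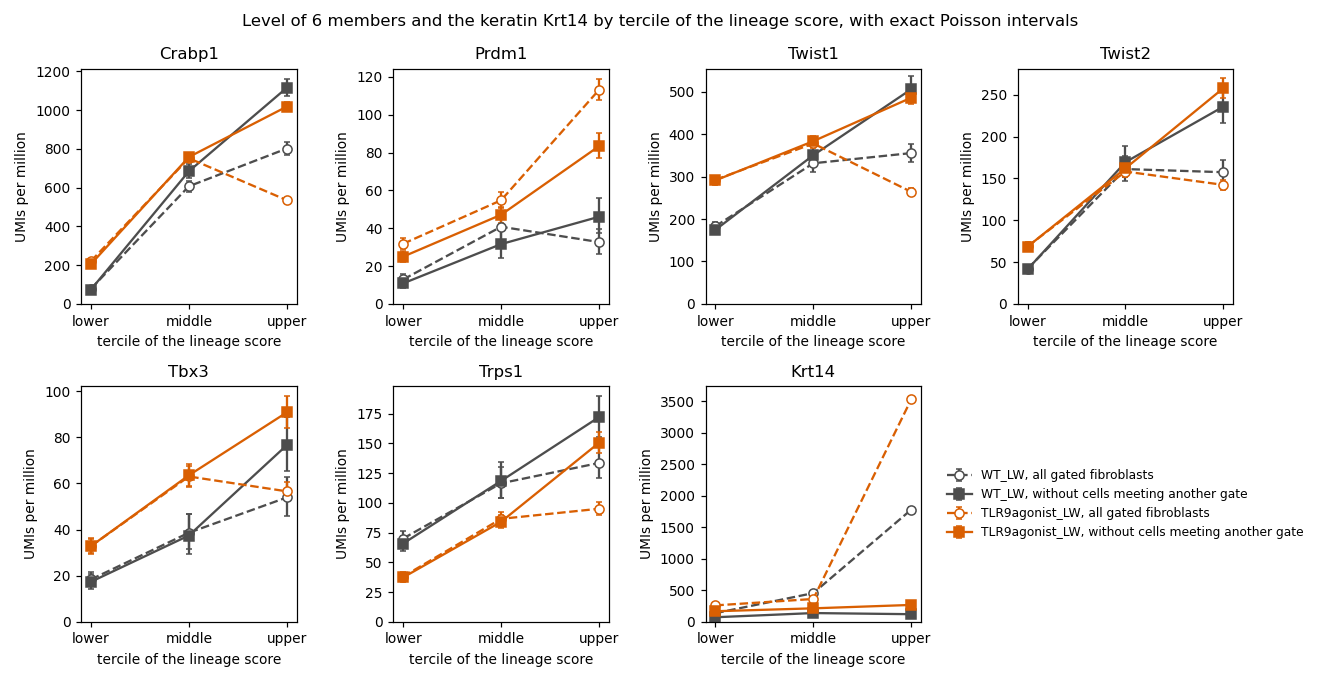
Level in CPM (vertical axis) of 6 members and the keratin Krt14 in the lower, middle and upper tercile of the lineage score, with WT_LW in grey, TLR9agonist_LW in orange, exact Poisson intervals as bars, dashed lines for all gated fibroblasts and solid lines without cells that met another gate. The solid lines rise for all 6 members in both libraries, while the dashed Crabp1 and Twist1 lines of TLR9agonist_LW end at 535 and 264 in the upper tercile, where Krt14 stands at 3532.

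The genes most like each member across fibroblasts were found by Pearson's r of log-scaled UMIs among 8014 genes, as a description, since cells of a library share its depth and composition. Crabp1 was most like Prss35 (r of 0.64 in WT_LW and 0.61 in TLR9agonist_LW), a secreted protease-like protein and a gene of the upper score, then Gm1673 and Megf6. Twist2 was most like Prss35 (0.51 and 0.40) and Crabp1 (0.48 and 0.42). Twist1 was most like Htra1, a secreted serine protease (0.48 and 0.48), then Col1a2 and the collagen chaperone Serpinh1. Trps1 was most like Tcf4 (0.29 and 0.35), Mylk and the retinoic acid hydroxylase Cyp26b1. Tbx3 was most like Crispld2 (0.24 and 0.27), Col7a1, the anchoring fibril collagen, and Twist2. The highest values for Prdm1 were near 0.2, with Jarid2 (0.19 and 0.22), Btg1 and Nfkb1, and Lef1 and Corin had too few UMIs for a reading.

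Other genes of the papilla and of the dermal condensate, its precursor, did not share 1 direction. Of 32 listed 19 had 200 or more fibroblast UMIs, 4 of them higher and 6 lower by 1.5-fold. Of all genes 7.41% were higher and 24.3% lower. The median log2 ratio of the 19 was -0.24 beside -0.32 for all genes. Cyp26b1 was at 79.3 and 165 CPM and Zic1, a zinc finger factor, at 25.8 and 39.2. Vcan, the proteoglycan versican, was at 691 and 408, and the Hedgehog target Gli1 at 10.1 and 4.44. Among genes under the count limit, Sox2, a factor of some papillae, had 3.91 and 1.54, and the Wnt inhibitor Wif1 had 12.8 and 0.30.

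Of 20 other papillary genes 3 were higher and 5 lower by 1.5-fold, with a median of 0.01, beside 7.41% of all genes higher and 24.3% lower. Fabp5, a fatty acid binding protein, was at 833 and 2951 CPM and the EGF family ligand Ereg at 16.8 and 39.5, and both belong to the keratinocyte-expressed genes named above. Cav1, the caveolar coat protein, was at 219.8 and 123. Of 17 reticular and deep fibroblast genes 0 were higher and 9 lower, with a median of -0.68, where 24.3% of all genes were lower. Thbs4, a matricellular protein, was at 199 and 28.8, Cd34 at 268 and 89.7 and Dlk1, a mark of fat precursors, at 66.0 and 16.4.

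In the Wnt and LEF/TCF list 17 of 22 genes had enough counts, 2 higher and 3 lower by 1.5-fold, with a median of -0.10. For this list and those that follow, the shares of all genes were 7.41% higher and 24.3% lower. Lgr5, a receptor for R-spondins, was at 14.98 and 70.9 CPM. The Wnt target Axin2 was at 10.4 and 15.4, a log2 ratio of 0.57 (1.5-fold is the limit). The other members of the LEF/TCF family were all above Lef1 (1.99 and 0.43) in both libraries in CPM, as 3′ tag counts. They were Tcf7l2 (65.6 and 80.8), Tcf7l1 (19.7 and 14.5) and Tcf7 (5.25 and 3.79). In the retinoid list 12 of 17 genes had enough counts, 2 higher and 2 lower, with Rbp4, the retinol carrier, at 48.3 and 126 and Crabp2, the relative of Crabp1, at 50.3 and 22.2. Of 24 relatives of the members 16 had enough counts, 1 higher and 3 lower, and the higher was Id3, which blocks basic helix-loop-helix factors, at 211 and 399.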

How the data were processed

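Single-cell RNA was measured in 2 libraries, WT_LW and TLR9agonist_LW. The deposited values are unnormalised UMI counts, which the authors made with Cell Ranger 4.0.0 per the file headers; the submitters' notes name fastp, Cell Ranger, Seurat and mm9, and whether the 3′ kit was v2 or v3 is not settled there. The counts were used as deposited, with no count column of another series. Cells needed 500 UMIs, 300 genes and at most 15% mitochondrial UMIs. The libraries then held 96440951 and 131004667 UMIs in 11443 and 13206 cells; 26.3% and 25.4% of them met no gate.

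The gates beside the fibroblast rule, in UMIs per cell, were: keratinocyte, 20 of Krt5, Krt14, Krt1 and Krt10 and 2 of Dsp, Perp, Cdh1 and Epcam; pericyte, 5 of Rgs5, Notch3, Myh11 and Kcnj8; Schwann, 5 of a marker list that includes Sox10 and Cdh19 and is not reported here in full; endothelial, 5 of Pecam1, Cdh5, Kdr and Emcn, all 4 without Ptprc; T cell, 2 of Cd3d, Cd3e and Cd3g with Ptprc; macrophage or dendritic, 5 of Lyz2, Csf1r, C1qb, Itgax and Cd68 with Ptprc, no Cd3 and at most 1 neutrophil UMI; mast, 20 of Cpa3, Cma1 and Tpsb2. Cells meeting 2 gates were left out of the types other than fibroblasts. A neutrophil gate (40 and 52 cells) was too small in WT_LW and was not used. No doublet caller was run; fibroblasts meeting another gate, or in the highest 10% of UMIs, were left out as alternatives.

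Levels are summed UMIs per 1000000 UMIs of a type (CPM), with exact Poisson intervals; ratios have the exact interval given the total, shares exact binomial intervals, and odds ratios conditional intervals. Genes needed 200 UMIs over both libraries to be called by a fold of 1.5. Computation used scipy 1.17.1 and pandas 2.3.3 on numpy 2.4.6 (Python 3.11.15), with matplotlib 3.10.9 for plots, and was tested on simulated data. Genes named are the members, the listed genes and the 3 most correlated genes per member. The members and lists were chosen with earlier results of these data known.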

Additional observations from a re-analysis of the deposited data

How the results depend on the processing

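Alternatives covered a stricter quality filter, other fibroblast gates, the highest 10% of UMIs left out, equal weight per cell, scaling to the median gene, another thinning depth and, added after the data were seen, fibroblasts with at most 4 keratin UMIs. No direction turned for the 6 members with enough counts. The log2 ratio of the fibroblast share was 1.44, and 1.57 with 100 or more collagen UMIs. The count of members higher by 1.5-fold, 2 as reported, was 4 with equal weight per cell and 5 relative to the median gene. Of all genes 13.0% were higher relative to the median gene, and the share with equal weight was not counted. The 9 pairs found together in both libraries were the only such count set beside a share of other pairs. Their number fell to 4 in fibroblasts with few keratin UMIs, which left 537 and 352 cells. Of the other 29 alternative values for these counts and shares, all stayed within 1.5 times or within the counting interval. The log2 ratio of Prdm1 ranged from 1.15 to 1.89, of Crabp1 from 0.40 to 0.86, of Tbx3 from 0.68 to 1.07, of Twist2 from 0.38 to 0.75, of Twist1 from 0.31 to 0.63 and of Trps1 from -0.37 to -0.03. The cause of these shifts was not tested. The number of members with intervals of the library ratio apart between lower and upper tercile, 5 as reported, ranged from 2 to 5 over the settings, the 2 being in fibroblasts with few keratin UMIs. No paired analysis was possible because each group has 1 library.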
